A study of Mus musculus with 2 samples.

Results

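Basement membranes are thin sheets of extracellular matrix that lie under epithelia and around vessels, muscle fibres and nerves. Their core is a network of laminins, each a trimer of an alpha, a beta and a gamma chain, joined to a network of type IV collagen. Nidogens bridge both networks, and perlecan, a heparan sulfate proteoglycan, binds to each of them. Cartilage has no basement membrane between its cells, but laminins, nidogens and perlecan are also present in the pericellular matrix around chondrocytes, and perlecan is needed for an ordered growth plate in mice. Sparc (osteonectin) is a secreted glycoprotein that binds collagens, among them the type IV collagen of basement membranes.

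The genes described here were Lama2, Lama4, Lama5, Lamb1, Lamb2, Lamc1, Nid1, Nid2, Hspg2 and Sparc, which were 10 of 18194 named genes on the array. They were chosen by name, and each probe set annotated to 1 of these genes alone was taken, 22 in all. The mice were wild-type C57BL/6J embryos at E17.5. One array held RNA of cartilage enriched in round chondrocytes, the cells of the bone end, and the other held RNA enriched in columnar and hypertrophic chondrocytes, which lie nearer the forming bone. Each group was 1 array whose RNA was mixed from 3 portions of cartilage plate, so the spread between animals was not measured, and no value below has a test or a replicate error.

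Signals were MAS5 intensities on a linear scale. A floor of 100.9, the 95th percentile of 85 probe sets for chemosensory receptors, marked the level expected of genes that cartilage does not use. It was computed over both arrays. The share of probe sets above it was 54.9% for the round array and 50.7% for the columnar/hypertrophic array. Differences are log2 values of the columnar/hypertrophic array minus the round array, and any signal under the floor was first set to the floor. A gene under the floor on 1 array therefore has a bound, written as "at least". Each gene was read from its brightest probe set and was counted as higher or lower from 2-fold. Probe sets of the same gene gave log2 differences with an SD of 0.367 over 4824 genes, which is a spread between probe sets and not between replicates.

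The labels were set beside marker genes. These lists were chosen with earlier results of these data known, so the counts are not an independent check. Of 7 measured markers of (pre)hypertrophic cells, 6 were higher by at least 2-fold on the columnar/hypertrophic array, among them the hypertrophic collagen gene Col10a1 (24.2 to 10818), Panx3, Ihh and Pth1r. Of 9 measured genes of round and articular chondrocytes, 8 were lower there, among them Sfrp2, Prg4, Wif1 and Grem1. All 13 general chondrocyte genes exceeded the floor on each array and were within 2-fold, with a median of 0.26 (0.03 to 0.34 over the alternatives). The furthest from 0 were Sox6 (-0.64), Hapln1 (0.54), Matn3 (0.50) and Acan (0.36). The 18 hybridization control probe sets differed by a median of 0.08.

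Promoter windows from RefSeq (GRCm38.p6), from 250 bases before to 50 after 1 start site per gene, matched 7 of the 10 genes, and Lama4, Lamc1 and Nid2 had no entry. The windows of Hspg2, Lamb2, Nid1 and Sparc are shown because these are the 4 matched genes that exceeded the floor on each array. Where the gene's outermost annotated start lies further upstream than that site, only the bases before the outermost start are printed, which leaves 198 bases for Hspg2, 235 for Lamb2 and 250 each for Nid1 and Sparc. The stretches lie at chr4:137468553-137468750 (plus strand), chr9:108479612-108479846 (plus strand), chr13:13437352-13437601 (plus strand) and chr11:55420081-55420330 (minus strand). Capitals mark the GC box, GGGCGG on either strand, the sequence bound by SP family factors.
Hspg2: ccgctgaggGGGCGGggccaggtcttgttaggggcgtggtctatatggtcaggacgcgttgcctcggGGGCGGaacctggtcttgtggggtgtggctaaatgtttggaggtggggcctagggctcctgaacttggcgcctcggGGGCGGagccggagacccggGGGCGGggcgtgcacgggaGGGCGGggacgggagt
Lamb2: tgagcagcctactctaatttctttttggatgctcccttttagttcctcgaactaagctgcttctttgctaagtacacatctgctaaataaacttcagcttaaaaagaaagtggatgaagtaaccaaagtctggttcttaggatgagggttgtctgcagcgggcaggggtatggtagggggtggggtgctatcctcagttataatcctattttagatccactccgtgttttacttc
Nid1: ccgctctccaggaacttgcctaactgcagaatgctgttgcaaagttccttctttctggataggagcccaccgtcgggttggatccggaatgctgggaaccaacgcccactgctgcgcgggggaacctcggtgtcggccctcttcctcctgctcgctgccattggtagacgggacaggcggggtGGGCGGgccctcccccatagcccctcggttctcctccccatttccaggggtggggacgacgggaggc
Sparc: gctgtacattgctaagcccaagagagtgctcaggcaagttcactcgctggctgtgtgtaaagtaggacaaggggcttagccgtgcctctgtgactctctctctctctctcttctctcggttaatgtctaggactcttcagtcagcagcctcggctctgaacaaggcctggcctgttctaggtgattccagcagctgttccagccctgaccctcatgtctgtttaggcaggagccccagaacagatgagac
The Hspg2 stretch held 5 GC boxes, the Nid1 stretch held 1 and the Lamb2 and Sparc stretches held 0. Bases G and C made up 70.3% of the whole Hspg2 window, 64.7% of the Nid1 window, 55.3% of the Sparc window and 44.0% of the Lamb2 window, against a median of 52.7% over all 32851 windows.

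Each motif was searched on both strands of the 7 whole windows. The GC box was found in 5 of them (Lama2, Lama5, Lamb1, Nid1 and Hspg2) and in 35.7% of all windows. In the Lama2 and Lamb1 windows no match lay in the bases before the outermost start, which number 1 and 103. The letters CCAAT occurred in 2 windows, those of Lamb1 and Nid1, and in 37.4% of all. The RUNX motif TGTGGT was found in the Sparc window alone among the 7 and in 16.8% of all. Neither the TATA box TATAAA (13.6% of all windows) nor the SOX motif ACAAAG (18.7% of all) was found in any of the 7. A match is a run of letters and does not show that a factor binds there.

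Of the 10 genes, 2 (Lama2 and Nid2) had a columnar/hypertrophic signal at least 2-fold higher, where 4.3% of all 11692 measured genes were. A single gene, Lama4, was at least 2-fold lower, where 6.35% of all measured genes were. Of the other 7, Lamb2, Lamc1, Nid1, Hspg2 and Sparc (5 genes) were measured in both zones and lay within 2-fold. Lama5 and Lamb1 had bounds under 2-fold, which do not limit how far they differed. The median difference over all 10 was 0.04, beside -0.05 over all measured genes. Over the 7 of them that exceeded the floor in both zones it was 0.09, beside -0.03 for the 10225 genes of that kind. Lama2, Lama5 and Lamb1 were above the floor on 1 array only. In a tissue made of several cell types, fewer cells of a type and less RNA per cell cannot be told apart.

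**Figure D1:**
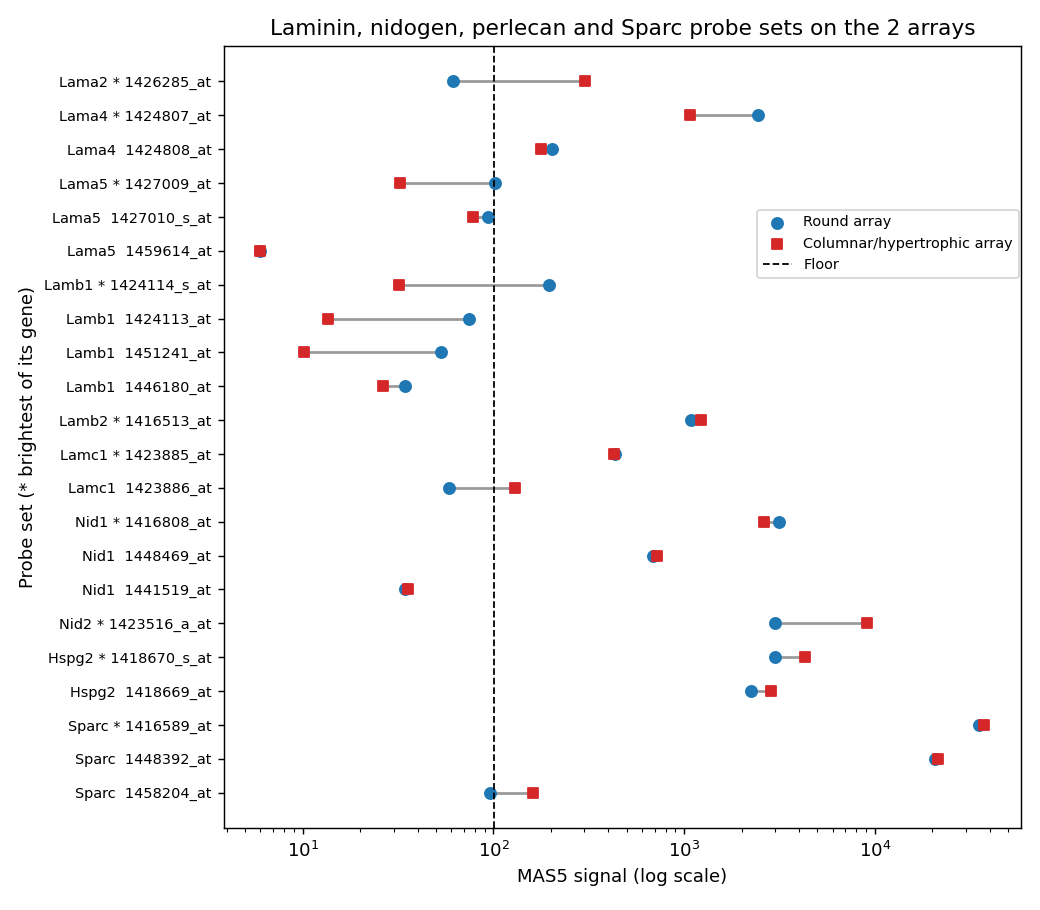
MAS5 signal (horizontal, log scale) of the 22 probe sets of the 10 genes (vertical; * marks the brightest of each gene) in round cartilage (circles) and in columnar/hypertrophic cartilage (squares), from 1 array per zone. The dashed line is the floor of 100.9. Nid2 moved from 3005 to 9097 and Lama4 from 2439 to 1068 by its brightest probe set, the Sparc probe sets 1416589_at and 1448392_at barely moved, and 6 probe sets lay under the floor on both arrays.

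The laminin alpha chains differ most between tissues and carry most of the binding sites for cell receptors. Lama4 encodes the alpha chain typical of blood vessel walls and other tissues of mesenchymal origin. Its brightest probe set, 1424807_at, had a signal of 2439 in round and 1068 in columnar/hypertrophic cartilage. This was 2.28-fold lower, and 3.42% of genes above the floor on both arrays had a lower difference. The dimmer Lama4 probe set, 1424808_at, had signals of 202 and 178, a difference of -0.18. Both probe sets were above the floor on both arrays and lay under 0, but the sizes disagreed by more than the usual spread between probe sets of a gene, so the size of the Lama4 difference is not settled. With the mean of the pair, the difference was -0.69, within 2-fold.

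Lama2 encodes the alpha chain of muscle and Schwann cell basement membranes, and its loss causes a congenital muscular dystrophy in mice and people. The only probe set naming it, 1426285_at, had a signal of 61.5 in round cartilage, under the floor, and 301 in columnar/hypertrophic cartilage. It was at least 2.99-fold higher. Among the alpha chains measured it was thus the one that was higher, while Lama4 was lower. Without the floor the deposited signals gave 2.29 on the log2 scale, and with the floor at the 99th percentile the bound was 1.04. A single weak probe set carries this difference, and no second probe set of the gene was there to set beside it.

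Lama5 encodes the alpha chain of most epithelial and many vascular basement membranes. Its brightest probe set, 1427009_at, had signals of 102 and 32.4, so that the round signal was barely above the floor and the bound was -0.02. The other Lama5 probe sets were under the floor on both arrays. Lama5 was therefore under the floor in columnar/hypertrophic cartilage, and its difference between the zones was not measurable.

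The beta and gamma chains complete the trimer. Lamc1 encodes the gamma chain shared by most laminins, and it carries the nidogen binding site. By probe set 1423885_at its signals were 431 and 429, a difference of -0.01. The second Lamc1 probe set, 1423886_at, went from 58.2, under the floor, to 130, a bound of 0.37. So the chain shared by most laminin trimers was close to equal on the arrays by its brightest probe set, within a range of -0.09 to 0.18 over the alternatives.

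Lamb2 encodes the beta chain best known from the neuromuscular junction and the kidney filter. Its probe set, 1416513_at, had signals of 1087 and 1233, a difference of 0.18. It stayed above 0 in all 10 alternatives (0.10 to 0.26), of which only the scalings could change it. Lamb1 encodes the beta chain that predominates in embryonic basement membranes. Its brightest probe set, 1424114_s_at, had a signal of 196 on the round array and 32.1, under the floor, on the other. The Lamb1 signal was at least 1.94-fold lower. This bound is set by the floor and did not reach the 2-fold rule, while the deposited signals without the floor differed by -2.61 on the log2 scale. The suffix of this probe set marks probes that can match more than 1 transcript. The other 3 Lamb1 probe sets were under the floor on both arrays, where signals cannot be told from background. Their deposited signals were 74.5 and 13.6 (1424113_at), 53.3 and 10.1 (1451241_at), and 34.3 and 26.4 (1446180_at). All 4 were thus dimmer on the columnar/hypertrophic array, but 3 of them without a usable difference.

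The genes of both nidogens were above the floor in both zones, and their differences lay far apart. Nid2 encodes nidogen-2, which binds laminin and type IV collagen and can stand in for nidogen-1 in many basement membranes of the mouse. Its probe set, 1423516_a_at, had a signal of 3005 in round and 9097 in columnar/hypertrophic cartilage. It was 3.03-fold higher, and 1.13% of genes above the floor on both arrays had a higher difference. Nid2 passed 2-fold in all 10 alternatives, with log2 differences from 1.46 to 1.68, but only the scalings among them could change its value. It has this 1 probe set alone, so no second probe set bears on it.

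Nid1 encodes nidogen-1, also called entactin, which is bound to the laminin gamma chain with high affinity. Probe set 1416808_at had signals of 3139 and 2637, a difference of -0.25. Probe set 1448469_at had signals of 682 and 724, a difference of 0.09, and 1441519_at stayed under the floor in both zones. The direction of Nid1 was therefore not settled between its probe sets, and neither came near the size of the Nid2 difference.

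Hspg2 encodes perlecan. Its brightest probe set, 1418670_s_at, had signals of 2983 and 4303, 1.44-fold higher on the columnar/hypertrophic array, and 13.7% of genes above the floor on both arrays had a higher difference. The second, 1418669_at, had signals of 2246 and 2850, a difference of 0.34. Both perlecan probe sets were higher there and both were within 2-fold, and the gene stayed above 0 in all 10 alternatives (0.34 to 0.61).

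Sparc was close to equal on the arrays. Probe set 1416589_at had signals of 35218 and 37494, a difference of 0.09. Probe set 1448392_at had signals of 20760 and 21391, a difference of 0.04. The dimmest Sparc probe set, 1458204_at, was near the floor (95.8 and 160). The sign of the Sparc difference depended on the scaling, since it was -0.17 after lowess centring and -0.08 with quantile normalization, so no direction is given. Whether signals this high were compressed was not tested.

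**Figure D2:**
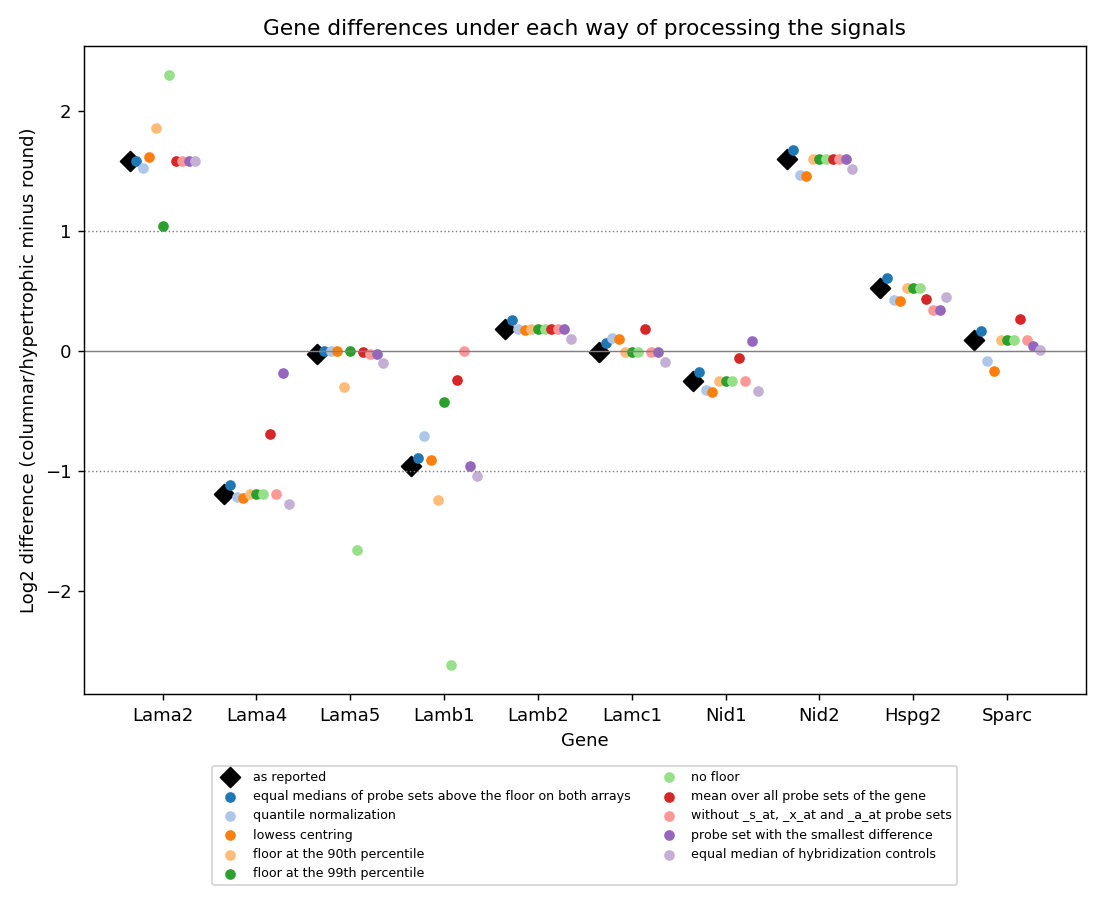
Log2 difference (vertical, columnar/hypertrophic minus round) of each of the 10 genes (horizontal) as reported (diamonds) and under 10 other ways of processing the signals (circles), with dotted lines at 2-fold. Lama2 and Nid2 stay above the upper line under each, and Lama4 rises to -0.18 with the probe set of the smallest difference. Lamb1 ranges from -2.61 without a floor to 0 without probe sets that can match several transcripts. Points of Lamb1 and Lama5 at exactly 0 mark a gene under the floor on both arrays and are not measured differences.

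Other laminin chain genes were nearly undetected. Lama1, Lama3 and Lamb3 were under the floor on both arrays, and Lamc3 had signals of 150 and 108 (-0.48, between -0.56 and -0.04 over the alternatives). None of these 4 chains was called in either direction.

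Type IV collagen forms the second network that nidogens join to laminin. Of 6 basement membrane collagen genes measured, 4 had a columnar/hypertrophic signal at least 2-fold lower and 1 had a higher one, with a median of -1.15 (between -1.23 and -0.69 over the alternatives). All 4 of the lower genes were type IV collagen chains. Col4a1, which encodes a chain of the ubiquitous type IV network, had signals of 619 and 131, a difference of -2.24, and its other probe set gave -1.80. Col4a2, encoding its partner chain, had signals of 1090 and 513, a difference of -1.09. Col4a5 and Col4a6, neighbouring genes whose products form the network of some epithelia and smooth muscle, differed by -1.51 (1490 to 522) and -1.22 (291 to 125). Their other probe sets gave smaller differences, -0.90 for Col4a5 and -0.48 for Col4a6. Col4a3 and Col4a4 were under the floor on both arrays.

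By their brightest probe sets, the 4 lower type IV collagen genes thus differed by -2.24 to -1.09. Lama4 lay in that range by its brightest probe set (-1.19) but not by its other (-0.18), and Lamb1 had a bound of -0.96. Lamb2, Lamc1, Nid1, Hspg2 and Sparc lay between -0.25 and 0.53 and Nid2 at 1.60. Lama2 and Lama5 had bounds of 1.58 and -0.02. No test of these contrasts was possible with 1 array per group. The collagens of the other kind in this list, which carry heparan or chondroitin sulfate chains, went the other way. Col18a1, the source of endostatin, rose from under the floor (88.6) to 203, at least 2.01-fold higher, and its bound was under 2-fold in 3 of 10 alternatives. Col15a1, a collagen of the outer face of basement membranes, had signals of 842 and 1572, a difference of 0.90, within 2-fold.

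Of 9 measured genes for other basement membrane proteins, 3 had a signal lower by at least 2-fold and 0 a higher one, with a median of -0.63 (-0.72 to -0.31 over the alternatives). Fras1, which encodes an adhesion protein under the embryonic epidermis, had signals of 1043 and 134, a difference of -2.96, and -2.61 by its other probe set. Hmcn1, the hemicentin gene, had signals of 538 and 40.3, under the floor, and was at least 5.33-fold lower. Vwa1 encodes a protein of the chondrocyte pericellular matrix that binds perlecan in mice. By its 1 probe set the signals were 522 and 101, the second barely above the floor. This was 5.15-fold lower, with log2 differences of -2.44 to -1.84 over the alternatives. The perlecan-binding partner was thus lower where the perlecan signal itself was within 2-fold. Ltbp2 had a bound of -0.80.

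Relatives of Sparc were split, with 1 of 5 measured genes higher and 1 lower. Sparcl1, encoding hevin, the closest relative of Sparc, had signals of 921 and 2420, 2.63-fold higher. Fstl1, a follistatin-like secreted glycoprotein gene, had signals of 11705 and 4653, 2.52-fold lower, and its other probe set gave -1.37. Both were past 2-fold in all 10 alternatives, but Sparcl1 has 1 probe set, so only the scalings could change its value. Spock3 gave a bound of -0.73, and Smoc1, whose product lies in basement membranes, differed by 0.35.

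Of 16 measured receptor genes for laminin and perlecan, 2 passed 2-fold upwards and 3 downwards, with a median of -0.05 (-0.13 to 0.12 over the alternatives). Itga1, an integrin alpha chain gene whose product binds type IV collagen and laminin, had signals of 155 and 1006, a difference of 2.69, but only 0.45 by its other probe set. The syndecan gene Sdc3 had signals of 1692 and 3692, a difference of 1.13, while its other probe sets gave -0.64 to 0.71. Sdc1 and Sdc2, which encode other syndecans, were 2.01-fold (3267 to 1629) and 2.05-fold (1737 to 847) lower, with other probe sets between -1.10 and -0.89 for Sdc1 and between -0.69 and -0.10 for Sdc2. Dmd, which encodes dystrophin, was at least 2.90-fold lower (293 to 44.7).

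Several of these receptor calls thus rest on 1 of the gene's probe sets. Other widely expressed laminin receptor genes, named after their values were seen, were within 2-fold. Itga6, a laminin-binding integrin chain gene, had signals of 2339 and 3706 (0.66, and 0.68 by its other probe set). Its partner chain gene Itgb1 had signals of 2890 and 3895 (0.43), and Dag1, encoding dystroglycan, had 3837 and 3654 (-0.07, with other probe sets from -0.01 to 0.85).

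**Figure D3:**
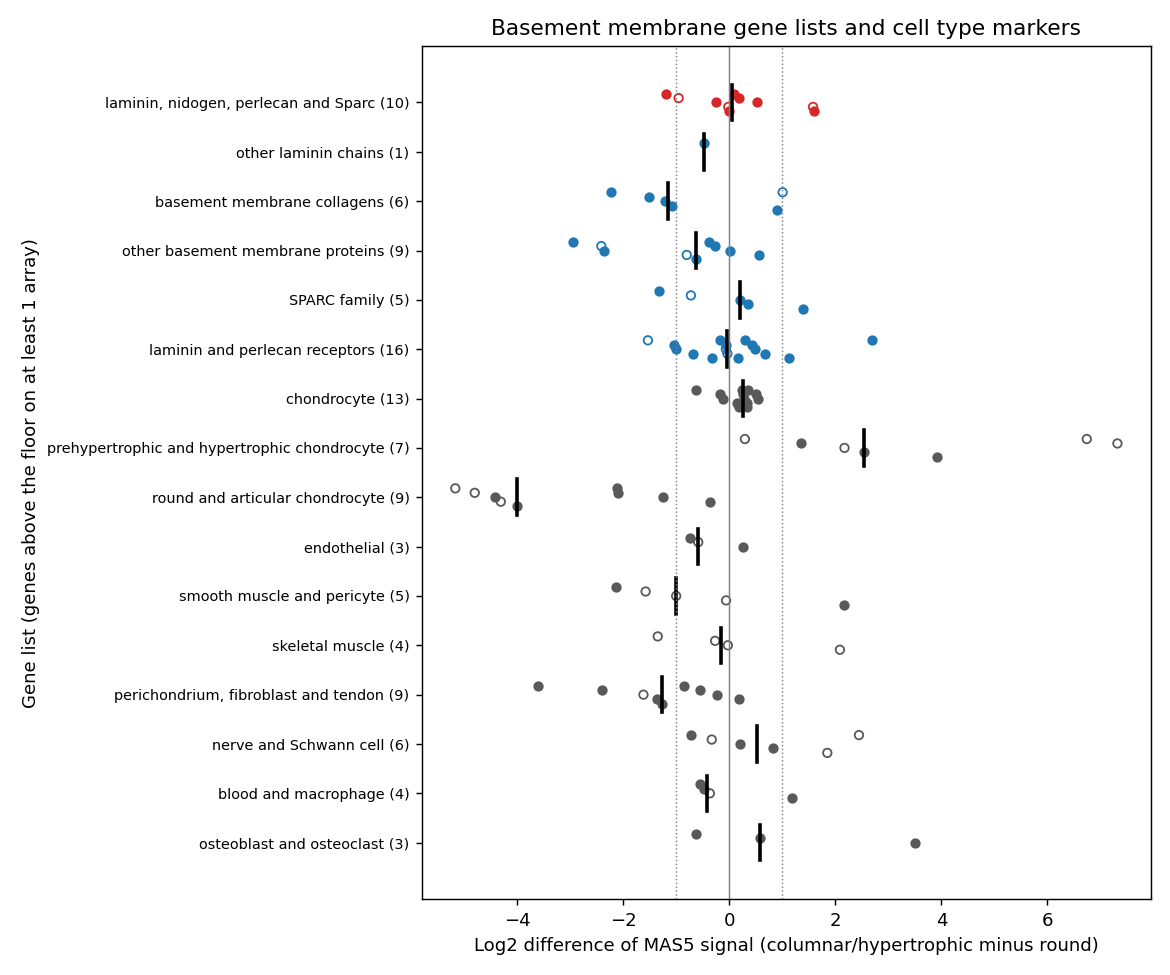
Log2 difference (horizontal, columnar/hypertrophic minus round) of the 10 genes (red), related basement membrane lists (blue) and cell type marker lists (grey), 1 point per gene above the floor on at least 1 array, with the number of such genes in brackets, open points for bounds, black bars for medians and dotted lines at 2-fold. The 10 genes have a median of 0.04, the basement membrane collagens one of -1.15 and the perichondrium, fibroblast and tendon markers one of -1.26.

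Cells other than chondrocytes make basement membrane proteins too, so their markers were read beside these genes. Of 12 endothelial markers, 3 were measured (Ramp2, Esam and Egfl7), 0 of them reached 2-fold (Esam by a bound), and the defining markers Pecam1, Cdh5, Kdr, Tek, Tie1 and Emcn were under the floor on both arrays. The summed endothelial signal went from 1082 to 796 from the round to the columnar/hypertrophic array. It includes the 9 markers under the floor on both arrays, and the sums given below likewise include signals under the floor. Of 10 smooth muscle and pericyte markers, 5 were measured. Pdgfrb (1968 to 446), Mcam and Notch3 were lower, Mcam and Notch3 by bounds, and Acta2 (225 to 1007) was higher. The Notch3 bound, at least 2.01-fold, passed 2-fold in 4 of 10 alternatives. Acta2 passed it in 8, by a probe set that can match several transcripts, and its other probe sets were under the floor. Myh11, Tagln and Cnn1 were under the floor, and the summed signal went from 2896 to 1746, but from 928 to 1300 without Pdgfrb. Of 12 markers of perichondrium, fibroblasts and tendon, 9 were measured and 5 of these were lower on the columnar/hypertrophic array, with a median of -1.26. They were Postn (1919 to 158), Col3a1 (26223 to 4986), Tnmd, Pdgfra and Col1a1, the defining tendon marker Scx was under the floor in both zones, and the summed signal went from 117247 to 76040. Lama4 and 4 type IV collagen genes were lower on the same array as Pdgfrb, Mcam, Notch3 and these 5 fibrous tissue markers. Acta2 was higher there, and the other 4 fibrous tissue markers measured were within 2-fold by their brightest probe sets. Among these, Col1a2 differed by -0.85, but its other probe sets gave -1.98 and -1.63. The part of fibrous tissue and pericytes in the differences of Lama4 and the collagens was not tested.

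Lama2 was read beside markers of the cells it is best known from. Of 6 nerve and Schwann cell markers measured, 2 were higher on the columnar/hypertrophic array. Mbp went from 8.83 to 550 by its brightest probe set and Cdh19 from 96.7 to 363, both from under the floor, while Gap43 (0.83) and Pmp22 (-0.73) were within 2-fold. Sox10, the transcription factor gene of Schwann cells, differed by 0.20 and by -0.96 in its other probe set, Erbb3 had a bound of -0.33, and other Mbp probe sets gave 0.65 to 1.51. The summed signal of the list went from 10887 to 7675, most of it from Pmp22, and from 526 to 1416 without Pmp22. Of 10 skeletal muscle markers, 4 were measured, each above the floor on 1 array only. Tnnt3 was higher (63.4 to 429), Des was lower (258 to 29.1), Acta1 and Ckm had bounds under 2-fold, and the defining markers Myh3, Myh8, Mylpf and Myog were under the floor. The summed muscle signal was 772 and 708, but 709 and 279 without Tnnt3. The part of nerve or muscle in the Lama2 difference was not tested.

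Of 9 blood and macrophage markers, 4 were measured, with Lyz2 higher (130 to 293) and Csf1r and Adgre1 within 2-fold, Cd68 had a bound under 2-fold, and Ptprc and Hba-a1 were under the floor on both arrays. Their summed signal was 684 and 663, but 553 and 370 without Lyz2. Of 7 osteoblast and osteoclast markers, 3 were measured, and Sp7, the osteoblast transcription factor gene also expressed in prehypertrophic chondrocytes, was higher (170 to 1940), with Ifitm5 and Ctsk within 2-fold and Dmp1 and Acp5 under the floor. Their summed signal went from 1237 to 2735, and from 1066 to 796 without Sp7. Nid2 was higher on the same array as Sp7 and the hypertrophic markers, and the part of bone cells in its difference was not tested.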

How the data were processed

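RNA of each group was hybridised to 1 Affymetrix GeneChip of the mouse genome. The deposited values are linear signal intensities, 1 per probe set (45101), and per the labels the authors made them with MAS5 (its version is not given in the sources read). The study's methods name RMA, a log-scale method. The deposited intensities were linear, and their mean without the lowest and highest 2% was 500.0 on both arrays, as MAS5 scaling gives. Such scaling takes total signal as equal between arrays.

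Gene names came from the platform's annotation. It gave a single gene for 34958 probe sets and several for 932, which were left out, while 9211 were unnamed here. Log2 differences were computed in Python 3.11.15 with numpy 2.4.6 and pandas 2.3.3, and lowess (span 0.3) with statsmodels 0.14.6. The steps were tested on simulated data in which only genes above the floor on both arrays were changed. That test does not cover dimmer genes such as Lamc1, or genes near or under the floor, such as Lama2, Lama5 and Lamb1.

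The genes and lists were chosen with earlier results of these data known. From each of 5 related lists and 10 marker lists, up to 4 genes with the largest differences were named, plus those completing counts of 5 or fewer. Receptor genes outside this rule are marked where named, and Sox10 and Erbb3 were added once values were known. The alternatives tried were other scalings, floors and rules for choosing a probe set. Scaling to the hybridization controls was added after seeing the data. With 1 array per group no test was made, and precision is limited by that number.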

Additional observations from a re-analysis of the deposited data

How the results depend on the processing

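Lama2 and Nid2 were the 2 genes at least 2-fold higher under all 10 alternatives. Each has 1 probe set, so the rules for choosing a probe set could not change either, and the floors could not change Nid2. The number of lower genes was 1 as reported (Lama4). It was 2 with a 90th percentile floor and 2 with scaling to the hybridization controls, an alternative chosen after seeing the data, in both cases with Lamb1 added. It was 3 without a floor (Lama4, Lama5 and Lamb1), and 0 both with the mean over all probe sets of a gene and with the probe set of the smallest difference. Over all measured genes, the lower count of 743 became 1203 without a floor and 487 with the mean over probe sets. The median of the 10 genes lay between -0.04 and 0.18, and was over 9 of them where Lama5 or Lamb1 was under the floor on both arrays. Of 100 differences, 1 per gene and alternative, 91 moved by less than the spread between probe sets, 9 moved further (Lama2, Lama4, Lama5 and Lamb1), and none with a 2-fold call changed sign. Many of the 91 could not move, because floors do not change bright genes and probe set rules do not change genes with 1 probe set. They also include Lama5 differences set to 0 where it was under the floor on both arrays. The other scalings moved the median difference of all genes by -0.08 to 0.07. No paired analysis was possible because each group had 1 array. Signals near the floor limit Lama2, Lama5 and Lamb1, for which only bounds were had.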
